A study of Mus musculus with 9 samples.

Results

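The genes described here are those of the amino acid response run by the transcription factor ATF4, together with the aminoacyl-tRNA synthetases. They comprise 22 genes named one by one and 33 more whose symbols follow the mouse naming pattern of the synthetases, 55 of the 22017 gene symbols in the table. By role they are 5 transcription factors, 5 stress effectors, 6 enzymes of amino acid synthesis, 5 folate one-carbon enzymes, 19 cytosolic synthetases and 15 mitochondrial synthetases. Of the 55 genes, 52 reached 1 FPKM in at least 3 libraries and were tested, and Chac1, Pycr1 and Vldlr did not.

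ATF4 is translated when the initiation factor eIF2 is phosphorylated, because short upstream reading frames in its messenger RNA then let ribosomes reach the main one. Among the eIF2 kinases, GCN2 senses uncharged tRNA and PERK senses unfolded protein in the endoplasmic reticulum. ATF4 pairs with C/EBP-family proteins at C/EBP-ATF response elements near genes for amino acid synthesis, transport and tRNA charging, so its activity is only partly visible in its own messenger RNA level. The synthetases attach each amino acid to its tRNA, and most amino acids have separate nuclear-encoded enzymes for the cytosol and the mitochondrion, while Gars and Kars serve both. Activated T cells draw on serine, one-carbon units and tRNA charging to grow.

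RNA was sequenced from cultured mouse T helper cells in 3 groups of 3 libraries, 9 in all. All 3 groups began as T cells from the spleens of wild-type C57BL/6 mice, described as naive in the series text, which were activated for 3 days with anti-CD3 at 5 ug/mL and anti-CD28 at 1 ug/mL. They later received IL-2 at 100 U/mL and, on day 7, a second stimulation with 0.05 ug/mL of each antibody, and RNA was taken on day 10. Th17-1 cells, the Th17-derived Th1 cells, were held in the Th17 condition first and in the Th1 condition from day 7. Th1-1 cells were in the Th1 condition, with IL-12 at 10 ng/mL and anti-IL-4, both times. Th17-17 cells were in the Th17 condition both times, with TGF-b at 1 ng/mL, IL-6 at 20 ng/mL, IL-1b at 10 ng/mL and antibodies to IFN-g, IL-12 and IL-4. The labels do not say that the replicates of a group came from separate mice or cultures, so p-values here measure the spread between these libraries, which may be technical.

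Library sums were 382581 to 405985 FPKM, the sequencing depth is unknown, and within-group correlations across genes were 0.964 to 0.993. T cell markers were present in every library, with a summed level of 852 to 1050 FPKM over 6 genes. Of the markers of other cells, 2 of 6 B cell genes (Cd79a and Cd79b), 1 of 6 macrophage genes (Cd68), 3 of 6 dendritic cell genes (Itgax, Zbtb46 and Xcr1), 1 of 5 neutrophil genes (Ly6g), 3 of 5 NK cell genes (Nkg7, Eomes and Klrb1c) and 0 of 6 erythroid genes reached 1 FPKM in any library. Ms4a1, Pax5, Csf1r, Fcgr1, Flt3, Ncr1, S100a8 and Mpo were at or near 0. The summed NK cell level was 240.0 to 492 FPKM in Th17-1, 642 to 820.0 FPKM in Th1-1 and 148 to 345 FPKM in Th17-17. Single NK cell markers did not all follow that sum. For Th1-1 against Th17-17, 3 were tested, with 1 call above 0 and 2 calls below 0. Those log2 differences ran from -1.471 to 1.998, with a median of -1.251. For Th17-1 against Th17-17, 2 of the 3 were called, both below 0, and against Th1-1 0 were called. The macrophage level was 3.62 to 6.84 FPKM in Th17-1, 3.71 to 11.8 FPKM in Th1-1 and 1.42 to 2.92 FPKM in Th17-17, and that of the neutrophil genes 9.38 to 34.7 FPKM in Th17-1, 2.27 to 3.05 FPKM in Th1-1 and 0.0761 to 0.745 FPKM in Th17-17. The B cell level was at most 4.01 FPKM and the dendritic cell level at most 9.03 FPKM. The part of these markers in the results was not tested. Ifng, the Th1 cytokine, reached 717 to 990.3 FPKM in Th17-1, 1006 to 2013 FPKM in Th1-1 and 14.2 to 40.7 FPKM in Th17-17 libraries. Il17a, the Th17 cytokine, was between 0.102 and 0.16 FPKM in Th17-1, listed at 0 in Th1-1 and between 2.99 and 6.16 FPKM in Th17-17 libraries. Of the 4 Th1 markers tested, 2 were called higher and 0 lower in Th17-1 than in Th17-17, with 2 differences below 0. Against Th1-1, 0 of them were higher and 2 lower. Of the 4 tested Th17 markers, 0 were called higher and 2 lower in Th17-1 than in Th17-17, with 1 difference above 0. Against Th1-1, 2 of these were higher and 0 lower. Replicate 3 of each group stood apart in CD8 genes: the sum of Cd8a and Cd8b1 was 152 FPKM there against 25.5 and 41.1 in Th17-1, 170.0 against 19.8 and 26.8 in Th1-1, and 203 against 50.8 and 79.0 in Th17-17. Each call of a named gene was therefore also made without replicate 3 of every group.

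A match to the C/EBP-ATF response element was found in the promoter windows of 10 members. The windows, 250 bases before to 50 bases after the gene start, come from RefSeq (GRCm38.p6) and covered 45 of the 55 members. The letters searched were TGATGNAAN on both strands, where N is any base. A match was present in 20.4% of the 49 member windows and in 3.95% of all 32851 windows of that length. The holders were Aars, Asns, Chac1, Gars, Iars, Pycr1, Tars, Trib3, Vldlr and Yars, and the members without a window included Cars, Hars, Hars2, Lars, Mars, Nars, Rars, Vars and Wars. The palindromic CRE letters TGACGTCA, the other ATF-type motif searched, were in 0 member windows and in 1.79% of all windows. The matches of 6 of the 7 holders that were tested are shown because they are the letters through which ATF4 and C/EBP proteins are known to act in such promoters. Each is written 5′ to 3′ on the strand of its gene, with the match in capitals, and a match on the opposite strand reads as its reverse complement.
Asns: cccagccacaTGATGAAACttcccgcacg
Gars: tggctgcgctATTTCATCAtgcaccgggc
Tars: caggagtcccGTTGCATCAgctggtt
Iars: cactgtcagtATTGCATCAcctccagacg
Yars: cgagctcagcTGATGCAACccgacgggac
Trib3: ttagctcaggTTTACATCAgccgggcggg
These stretches lie at chr6:7693214-7693242 (minus strand) for Asns, chr6:55037960-55037988 (plus) for Gars and chr15:11399659-11399684 (minus) for Tars. Those of Iars, Yars and Trib3 lie at chr13:49682126-49682154 (plus), chr4:129189896-129189924 (plus) and chr2:152344029-152344057 (minus). The matches of Asns, Gars and Tars end 15, 23 and 8 bases before the start of the gene, and those of Iars, Yars and Trib3 begin 7, 4 and 14 bases into it. A match describes the letters in the window and does not show that a protein binds there.

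The question was which of these genes differed between Th17-derived Th1 cells (Th17-1) and Th17-17 or Th1-1 cells, and between Th1-1 and Th17-17 cells. Values are FPKM, differences are on the log2(FPKM + 1) scale, which understates the change of low genes, and a gene was called when limma's two-sided p, adjusted by Benjamini-Hochberg over 10538 genes, was under 0.05. Few members were called in Th17-1 cells. Against Th17-17, 2 of 52 members were higher (Wars and Sesn2) and 4 were lower (Aars2, Cars2, Hars2 and Iars2). That is 11.5% of the members, beside 15.9% of all genes tested (6.43% higher and 9.49% lower). Against Th1-1, 2 members were higher in Th17-1 (Wars and Tars2) and 1 was lower (Sesn2), 5.77% of the members beside 10.5% of all genes (5.67% higher and 4.81% lower).

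In the comparison of Th1-1 with Th17-17, 5 members were higher in Th1-1 (Sesn2, Ddit3, Ddit4, Aars and Qars). Another 10 were lower in Th1-1, of which 8 were mitochondrial synthetases and the others were Cebpg and Trib3. In all 28.8% of the members were called, beside 42.9% of all genes (14% higher and 28.9% lower). None of these 3 shares exceeds its background. Groups did not overlap in 18 of the 52 members in Th17-1 against Th17-17 (34.6%, beside 43.2% of all genes), in 7 in Th17-1 against Th1-1 (13.5%, beside 29.2%) and in 14 in Th1-1 against Th17-17 (26.9%, beside 52.9%). The median member difference was -0.06 in Th17-1 against Th17-17, 0.15 in Th17-1 against Th1-1 and -0.23 in Th1-1 against Th17-17, beside -0.12, 0.05 and -0.17 over all genes. Median-ratio scaling moves those all-gene medians to -0.01, 0.00 and -0.01, and with it the share of calls that are higher moves to 63.1% (40.4% as deposited), 45.5% (54.1%) and 53.9% (32.7%). In bulk RNA, fewer cells of a type and less of an RNA per cell cannot be told apart.

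**Figure D1:**
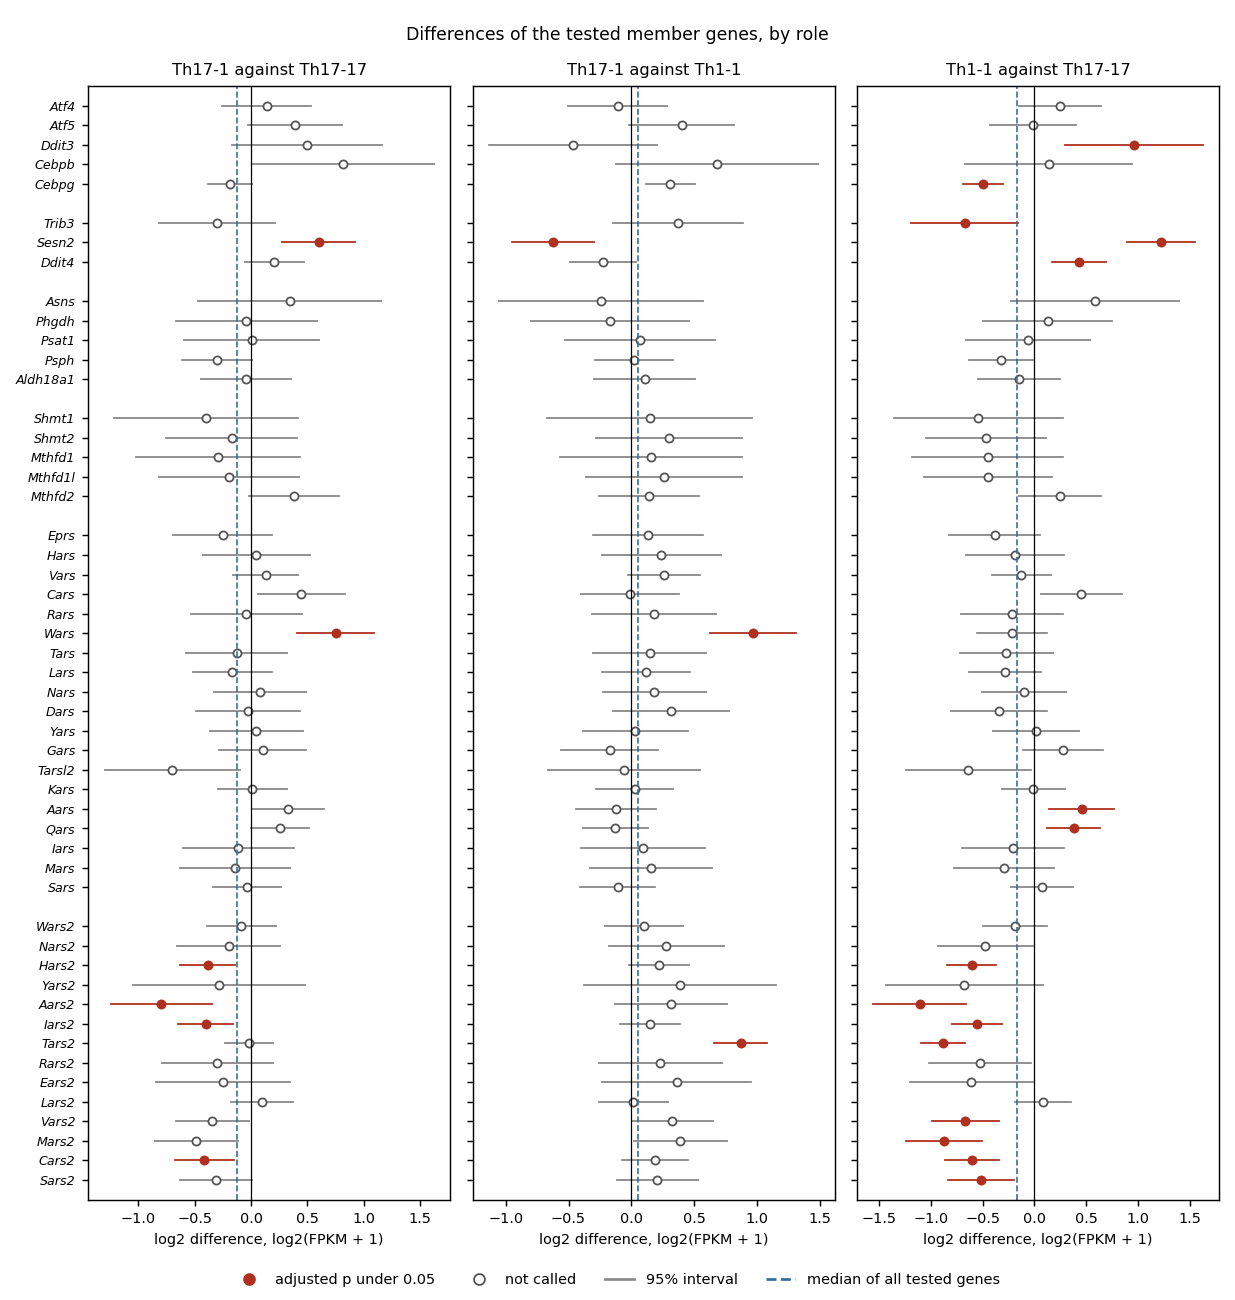
Log2 difference in log2(FPKM + 1) of 51 of the 52 tested genes, in rows grouped by role, for Th17-1 against Th17-17, Th17-1 against Th1-1 and Th1-1 against Th17-17; bars are 95% intervals, filled red points are called, open points are not, and the dashed line is the median of all 10538 tested genes. In the right panel 13 of the 14 mitochondrial synthetases drawn, the lowest block, lie below 0, with Aars2 farthest left at -1.11, and Sesn2 lies farthest right at 1.23.

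Sesn2 encodes sestrin 2, a stress-induced leucine sensor that restrains the growth kinase complex mTORC1, and lies at chr4:132492032-132510501 on the minus strand. It had 14.4, 14.9 and 13.6 FPKM in the 3 Th17-1 libraries (replicates 1, 2 and 3, the order used throughout), 19.6, 28.2 and 20.8 FPKM in the Th1-1 libraries and 8.23, 8.62 and 10.5 FPKM in the Th17-17 libraries. The 3 groups did not overlap: every Th1-1 library was above every Th17-1 library, and every Th17-1 library above every Th17-17 library. In limma the difference of Th1-1 against Th17-17 was 1.23 ± 0.14 (SE), a 2.34-fold difference (adjusted p = 0.000387, 3 of 3 libraries higher), and this call held in all 19 alternatives, with 0.97 to 1.38. Th17-1 stood 0.60 ± 0.14 above Th17-17 (adjusted p = 0.0244) and -0.63 ± 0.14 against Th1-1 (adjusted p = 0.0282). Neither of those limma calls was stable. The call against Th17-17 ended without Th17-1 replicate 1 or 2 or Th17-17 replicate 1 or 2 (limma adjusted p = 0.0756 to 0.103). The call against Th1-1 ended without Th1-1 replicate 3 or any Th17-1 replicate (limma adjusted p = 0.0561 to 0.0919) and with the 2 compared groups only (adjusted p = 0.0573). Without replicate 3 of every group the calls against Th17-17 and Th1-1 had limma adjusted p = 0.0552 and 0.0967.

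Of the transcription factors, Atf4 itself was not called in any comparison. Atf4 had 65.8, 63.7 and 66.3 FPKM in Th17-1, 63.0, 82.0 and 67.7 FPKM in Th1-1 and 50.6, 51.1 and 80.1 FPKM in Th17-17 libraries. Replicate 3 of Th17-17 lay at the level of the highest Th1-1 library while the other two lay below every library of the other groups. The difference of Th1-1 against Th17-17 was 0.25 ± 0.17 in limma (adjusted p = 0.274), with a 95% interval of -0.15 to 0.64. Without Th17-17 replicate 3 it was 0.46 and passed (adjusted p = 0.0164). Th17-1 differed from Th17-17 by 0.14 (interval -0.25 to 0.53) and from Th1-1 by -0.11 (interval -0.50 to 0.28).

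Ddit3, which encodes the stress-induced factor CHOP, lies at chr10:127290774-127296288 on the plus strand. It had 10.7, 10.5 and 16.6 FPKM in Th17-1, 19.1, 10.4 and 26.2 FPKM in Th1-1 and 8.10, 9.97 and 7.46 FPKM in Th17-17 libraries. The Th1-1 and Th17-17 libraries did not overlap, though Th1-1 replicate 2 was within 1 FPKM of the highest Th17-17 library. Ddit3 was 1.95-fold higher in Th1-1 than in Th17-17 (limma log2 difference 0.96 ± 0.30, adjusted p = 0.0274). That call ended without replicate 1 or 3 of either group (adjusted p = 0.0776 to 0.0925), without replicate 3 of every group (adjusted p = 0.139) and with no filter on low values (adjusted p = 0.0532). Ddit3 shares 68 exon bases with Mars on the opposite strand.

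Cebpg, a C/EBP-family partner of ATF4, moved the other way and had the narrowest spread. It had 8.74, 9.85 and 10.1 FPKM in Th17-1, 7.58, 7.46 and 7.49 FPKM in Th1-1 and 11.5, 10.9 and 10.7 FPKM in Th17-17 libraries. The 3 groups did not overlap, with Th17-1 between the other two. Cebpg was lower in Th1-1 than in Th17-17 by a log2 difference of -0.50 ± 0.09 in limma (adjusted p = 0.00239), a call that held in all 19 alternatives (-0.55 to -0.31). Th17-1 against Th1-1 gave 0.31 and narrowly missed the threshold (adjusted p = 0.0543).

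Cebpb, another C/EBP-family gene, had 21.5, 18.5 and 13.4 FPKM in Th17-1, 8.36, 20.2 and 6.74 FPKM in Th1-1 and 7.80, 8.41 and 12.9 FPKM in Th17-17 libraries. Th17-1 libraries lay above all Th17-17 libraries, and Th1-1 replicate 2 lay among the Th17-1 libraries. Its difference of Th17-1 against Th17-17 was 0.82 ± 0.36, the highest of the 52 members, but limma did not call it (adjusted p = 0.145). Without Th1-1 replicate 2 it passed (adjusted p = 0.0256). Atf5, a factor related to ATF4, averaged 3.41 ± 0.58 FPKM in Th17-1, 2.39 ± 0.84 FPKM in Th1-1 and 2.36 ± 0.32 FPKM in Th17-17 (SD, n = 3 each) and was not called.

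**Figure D2:**
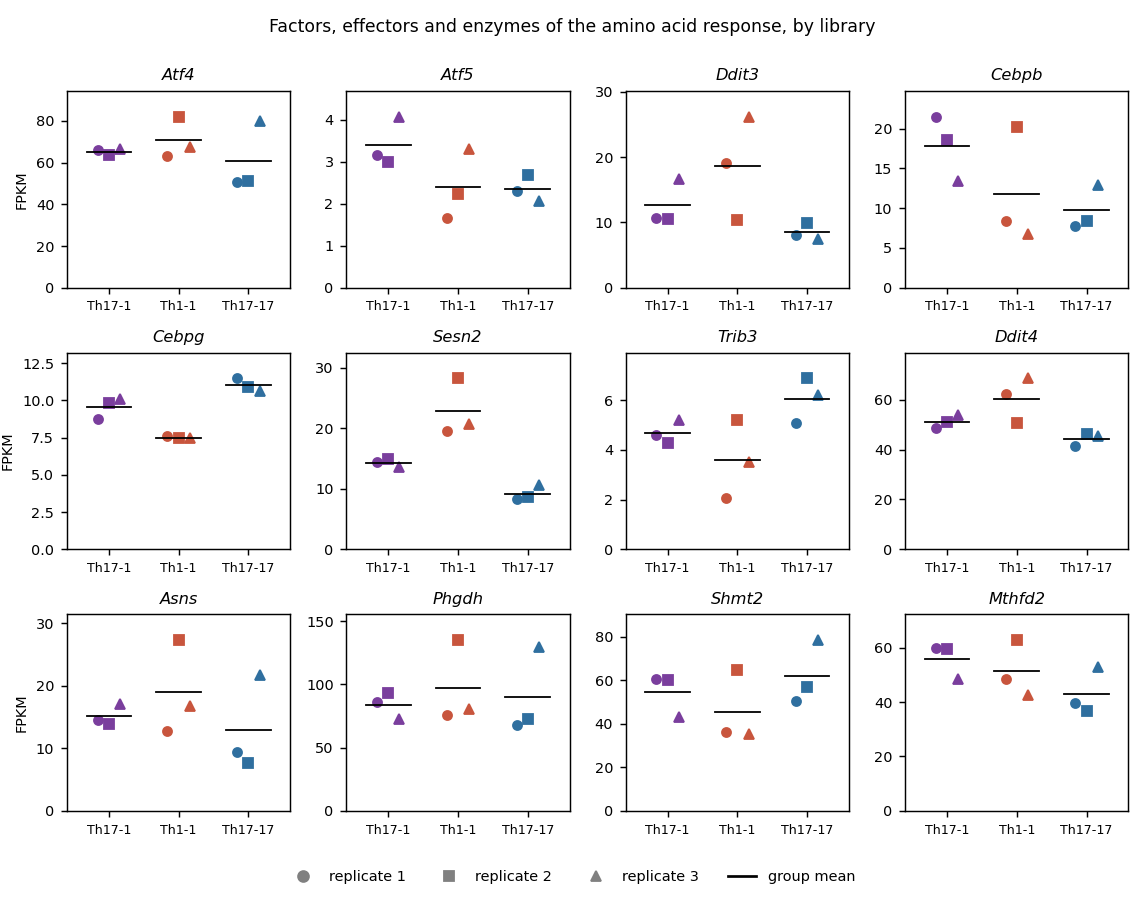
FPKM of 12 factors, effectors and enzymes in each library (circle, square and triangle for replicates 1, 2 and 3; line for the group mean), with Th17-1, Th1-1 and Th17-17 from left to right and each axis starting at 0. Sesn2 and Cebpg separate the 3 groups without overlap, whereas in Asns and Phgdh the highest points are Th1-1 replicate 2 (27.3 and 135 FPKM) and Th17-17 replicate 3 (21.7 and 129 FPKM).

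Among the other stress effectors, Ddit4 and Trib3 were called in opposite directions between Th1-1 and Th17-17. Ddit4 encodes REDD1, an inhibitor of mTORC1, and had 48.8, 51.0 and 53.8 FPKM in Th17-1, 62.1, 50.5 and 68.6 FPKM in Th1-1 and 41.3, 46.2 and 45.4 FPKM in Th17-17 libraries. Every Th1-1 library was above every Th17-17 library, by a limma difference of 0.43 ± 0.12 (adjusted p = 0.0161). The call ended without Th1-1 replicate 3 or Th17-17 replicate 1 (adjusted p = 0.0622 and 0.0656) and without replicate 3 of every group (adjusted p = 0.0956).

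Trib3 encodes a pseudokinase that feeds back on ATF4. It had 4.59, 4.29 and 5.21 FPKM in Th17-1, 2.05, 5.18 and 3.51 FPKM in Th1-1 and 5.09, 6.87 and 6.20 FPKM in Th17-17 libraries. Th1-1 replicate 2 overlapped the Th17-17 libraries. Trib3 was lower in Th1-1 than in Th17-17 (limma difference -0.67 ± 0.23, adjusted p = 0.0403). This call was the least stable of the 15: it ended in 12 of 19 alternatives, 7 of them fits without a single library (Th1-1 replicate 1 or 3, Th17-1 replicate 1 or 2, or any Th17-17 replicate, adjusted p = 0.0565 to 0.125). The call also ended without replicate 3 of every group (adjusted p = 0.175) and under median-ratio or quantile scaling (adjusted p = 0.0964 and 0.124).

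The remaining effectors were at or below the filter. Chac1, a glutathione-degrading enzyme induced by ATF4 and CHOP, had 0.332, 0.679 and 1.08 FPKM in Th17-1, 0.579, 0.99 and 1.17 FPKM in Th1-1 and 0.413, 0.164 and 0.539 FPKM in Th17-17 libraries. Vldlr, a lipoprotein receptor, was at most 0.00319 FPKM in Th17-1, at most 0.088 FPKM in Th1-1 and listed at 0 in every Th17-17 library. Neither was tested.

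None of the 5 tested enzymes of amino acid synthesis was called by limma in any comparison. Asns, asparagine synthetase and a classical ATF4 target, had 14.6, 13.9 and 17.1 FPKM in Th17-1, 12.8, 27.3 and 16.8 FPKM in Th1-1 and 9.41, 7.69 and 21.7 FPKM in Th17-17 libraries. The Th1-1 and Th17-17 ranges overlapped, and Th17-17 replicate 3 stood above all other libraries except Th1-1 replicate 2. The difference of Th1-1 against Th17-17 was 0.59 ± 0.36 (adjusted p = 0.21, interval -0.22 to 1.40), and 1.00 without Th17-17 replicate 3 (adjusted p = 0.0213). Phgdh and Psat1 of the serine pathway had the same high libraries. Phgdh, its first enzyme, had 86.1, 93.2 and 72.7 FPKM in Th17-1, 76.1, 135 and 81.0 FPKM in Th1-1 and 67.9, 72.4 and 129 FPKM in Th17-17 libraries, and Psat1, the next, averaged 47.6 ± 5.4 FPKM in Th17-1, 47.4 ± 19.0 FPKM in Th1-1 and 48.3 ± 13.3 FPKM in Th17-17 (SD, n = 3 each). Psph, the last serine enzyme, had 17.0, 16.7 and 13.9 FPKM in Th17-1, 13.6, 19.2 and 14.4 FPKM in Th1-1 and 20.8, 20.1 and 18.2 FPKM in Th17-17 libraries, so its Th17-17 replicate 3 was the lowest of that group. Aldh18a1, which starts proline synthesis, averaged 29.7 ± 4.3 FPKM in Th17-1, 27.9 ± 6.6 FPKM in Th1-1 and 30.6 ± 3.8 FPKM in Th17-17. Pycr1, which ends it, was too low to test, at 0.345 to 1.11 FPKM in Th17-1, 0.668 to 1.68 FPKM in Th1-1 and 0.261 to 0.538 FPKM in Th17-17.

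The 5 folate enzymes, which carry the one-carbon unit from serine in the cytosol (Shmt1 and Mthfd1) and the mitochondrion (Shmt2, Mthfd2 and Mthfd1l), were likewise not called. Shmt2 had 60.6, 59.9 and 42.9 FPKM in Th17-1, 36.3, 64.9 and 35.3 FPKM in Th1-1 and 50.2, 56.8 and 78.4 FPKM in Th17-17 libraries. Mthfd1 had 30.3, 31.6 and 17.7 FPKM in Th17-1, 17.2, 39.6 and 17.7 FPKM in Th1-1 and 29.6, 28.8 and 37.9 FPKM in Th17-17 libraries. In both genes 1 library per group departed from the others: replicate 3 of Th17-1 was low, replicate 2 of Th1-1 high and replicate 3 of Th17-17 high. Shmt1 averaged 10.8 ± 3.3 FPKM in Th17-1, 10.4 ± 6.5 FPKM in Th1-1 and 14.2 ± 3.0 FPKM in Th17-17 (SD, n = 3 each). Mthfd1l averaged 20.1 ± 4.2, 17.4 ± 7.5 and 23.1 ± 4.8 FPKM and Mthfd2 55.9 ± 6.3, 51.3 ± 10.4 and 43.1 ± 8.6 FPKM in the same groups. The median folate difference of Th1-1 against Th17-17 was -0.45. Without Th1-1 replicate 2 it was -0.76 and 4 of the 5 were called lower, where 0 were called with all libraries. In that fit 3738 of all 10475 genes were called lower. Without replicate 3 of every group the median was -0.15, and Mthfd2 was called higher in Th1-1 (adjusted p = 0.0398, limma). Mthfd2 was then also called higher in Th17-1 than in Th17-17 (adjusted p = 0.0461, limma), where the folate median was 0.13.

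Th1-1 replicate 2 and Th17-17 replicate 3 were high across the gene set, and Th17-1 replicate 3 low. Th1-1 replicate 2 was the highest of its group in 43 of 52 members (82.7%, against 45.6% of all genes tested), by a median of 0.51 on the log2 scale over the mean of the other two. Th17-17 replicate 3 was the highest of its group in 61.5% of members, against 42.9% of all genes. Th17-1 replicate 3 was the lowest of its group in 75.0%, against 46.8%. In Th17-17 replicate 3 the direction differed by role: 18 of 19 cytosolic synthetases and 5 of 5 folate enzymes were highest there, while 10 of 15 mitochondrial synthetases were lowest. Of 18 cell cycle genes, 18 were lowest in Th17-1 replicate 3 and 17 highest in Th17-17 replicate 3, the same libraries as above. In Th1-1 the match was weaker: 12 were highest in replicate 2, and 16 were lowest in replicate 3. The summed level of the cell cycle genes was 1800, 1720 and 1370 FPKM in Th17-1 libraries. It was 1680, 1750 and 1510 FPKM in Th1-1 and 1690, 1610 and 1900.0 FPKM in Th17-17 libraries. The part of the cell cycle genes in the results was not tested. Without Th1-1 replicate 2, the members called lower in Th1-1 than in Th17-17 numbered 26 instead of 10, and those called higher 4 instead of 5. Over all genes the lower calls numbered 3738 of 10475 instead of 3048 of 10538, and the higher calls 1662 instead of 1478.

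**Figure D3:**
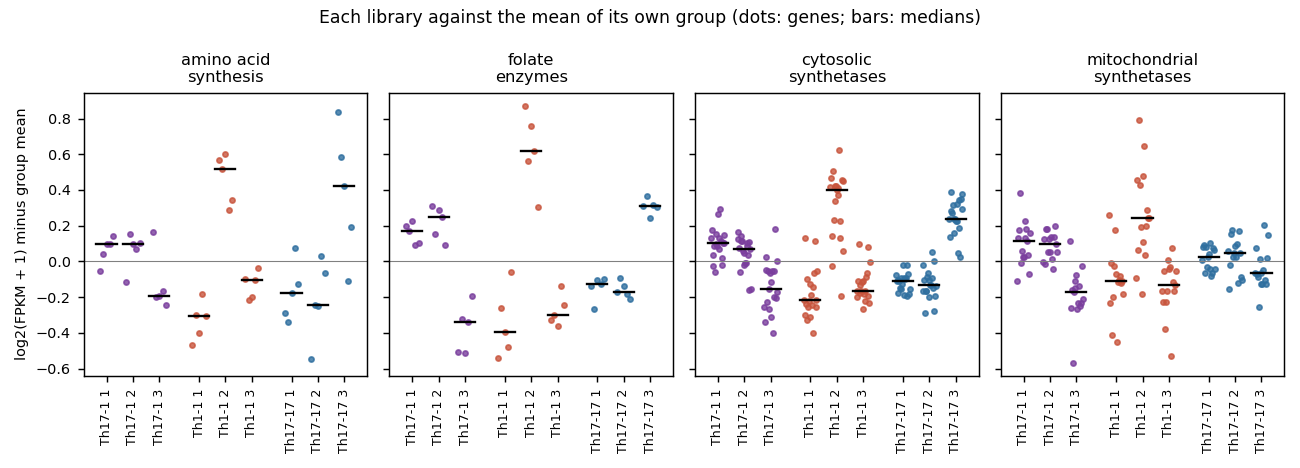
Log2(FPKM + 1) of each gene minus the mean of its own group (vertical axis), for the 9 libraries (horizontal axis, Th17-1, Th1-1 and Th17-17 from left to right) in 4 roles; dots are genes and bars their medians. Th1-1 replicate 2 is high in all 4 panels, and Th17-17 replicate 3 is high in the first 3 and slightly low for mitochondrial synthetases.

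Of the 19 cytosolic synthetases, 1 was called in each Th17-1 comparison and it was the same gene, Wars. That is 5.26% of them in either comparison, beside 15.9% of all genes called against Th17-17 and 10.5% against Th1-1. Wars encodes tryptophanyl-tRNA synthetase, known in human cells as an interferon-gamma-induced gene, and lies at chr12:108860030-108894174 on the minus strand. It had 67.4, 76.0 and 67.7 FPKM in Th17-1, 33.1, 41.9 and 32.2 FPKM in Th1-1 and 37.2, 36.7 and 51.7 FPKM in Th17-17 libraries. Every Th17-1 library was above every library of both other groups, which overlapped each other. The limma difference was 0.97 ± 0.15 against Th1-1, a 1.95-fold difference (adjusted p = 0.00596), and this call held in all 19 alternatives (0.89 to 1.08). Against Th17-17 it was 0.75 ± 0.15, a 1.68-fold difference (adjusted p = 0.011), a call that ended without Th17-17 replicate 1 or 2 (adjusted p = 0.0584 and 0.057) and held in the other 17 alternatives. Between Th1-1 and Th17-17 the difference was -0.22 ± 0.15 (adjusted p = 0.273).

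Of 13 tested interferon-gamma-induced genes outside the members, limma called 10 higher and 0 lower in Th17-1 against Th17-17 (76.9% higher, beside 6.43% of all genes). In Th17-1 against Th1-1 it called 2 higher and 0 lower (15.4%, beside 5.67%), and in Th1-1 against Th17-17, where Wars was not called, 9 higher and 0 lower (69.2%, beside 14%). Gbp2, Gbp3 and Gbp5, guanylate-binding proteins, and Igtp, an immunity-related GTPase, had the largest differences in Th17-1 against Th17-17 (3.57, 2.14, 2.67 and 1.38) and were called in Th1-1 against Th17-17 as well (3.07, 2.18, 2.25 and 1.07). Gbp5 had 62.5, 55.6 and 69.2 FPKM in Th17-1, 73.2, 24.1 and 56.0 FPKM in Th1-1 and 8.24, 6.76 and 12.6 FPKM in Th17-17 libraries, so Th17-1 and Th1-1 overlapped and both lay above Th17-17. Among the genes called above Th1-1, Irgm1, another such GTPase, had 121, 116 and 101 FPKM in Th17-1, 58.6, 57.7 and 56.8 FPKM in Th1-1 and 48.0, 41.3 and 74.2 FPKM in Th17-17 libraries. Its Th17-1 libraries lay above all others. Its call against Th1-1 (limma adjusted p = 0.0146) ended without Th1-1 replicate 3 or Th17-1 replicate 1 or 2.

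In Th1-1 against Th17-17, 2 of 19 cytosolic synthetases were called higher (10.5%, beside 14% of all genes) and 0 lower (beside 28.9%). Aars, the alanyl enzyme, had 46.6, 47.1 and 44.3 FPKM in Th17-1, 48.0, 55.1 and 48.1 FPKM in Th1-1 and 31.6, 32.8 and 46.4 FPKM in Th17-17 libraries. Qars, the glutaminyl enzyme, had 62.6, 56.9 and 72.1 FPKM in Th17-1, 75.4, 60.6 and 73.6 FPKM in Th1-1 and 52.3, 53.2 and 54.0 FPKM in Th17-17 libraries. In both genes the Th1-1 libraries lay above the Th17-17 libraries, and for Aars the gap to Th17-17 replicate 3 was small. The limma differences were 0.46 ± 0.14 for Aars (adjusted p = 0.0275) and 0.38 ± 0.11 for Qars (adjusted p = 0.0245). The Aars call ended without any single Th1-1 replicate or Th17-17 replicate 1 or 2 (limma adjusted p = 0.05003 to 0.105). It also ended with the 2 compared groups only (limma adjusted p = 0.0578). That of Qars ended without replicate 1 or 3 of Th1-1 or replicate 1 or 2 of Th17-17 (limma adjusted p = 0.0689 to 0.0863) and without replicate 3 of every group (adjusted p = 0.0957). Aars shares 1326 exon bases with Exosc6 on the same strand, and reads from those bases cannot be assigned to one of the genes.

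The other 17 cytosolic synthetases were not called between Th1-1 and Th17-17. Their family median was -0.19 in Th1-1 against Th17-17, 0.01 in Th17-1 against Th17-17 and 0.12 in Th17-1 against Th1-1. The first of these medians stayed below 0 under every scaling and became 0.07 without replicate 3 of every group, and the second was -0.01 with equal sums, -0.02 with quantile scaling, 0.13 with median-ratio scaling and 0.21 without replicate 3 of every group. Levels per length ran high: Kars averaged 92.5 ± 10.8 FPKM in Th17-1, 91.1 ± 13.1 FPKM in Th1-1 and 91.6 ± 10.8 FPKM in Th17-17 (SD, n = 3 each). At the other end Tarsl2, a second threonyl enzyme, averaged 2.61 ± 0.85 FPKM in Th17-1, 2.88 ± 1.57 FPKM in Th1-1 and 4.75 ± 0.34 FPKM in Th17-17. Eprs, the bifunctional glutamyl-prolyl enzyme, averaged 37.8 ± 5.7, 34.9 ± 9.5 and 45.1 ± 7.0 FPKM in the same groups. Without Th1-1 replicate 2, 7 of the 19 cytosolic synthetases were called lower and 1 higher in Th1-1 than in Th17-17. Over all 10475 genes in that fit, 3738 were called lower and 1662 higher.

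**Figure D4:**
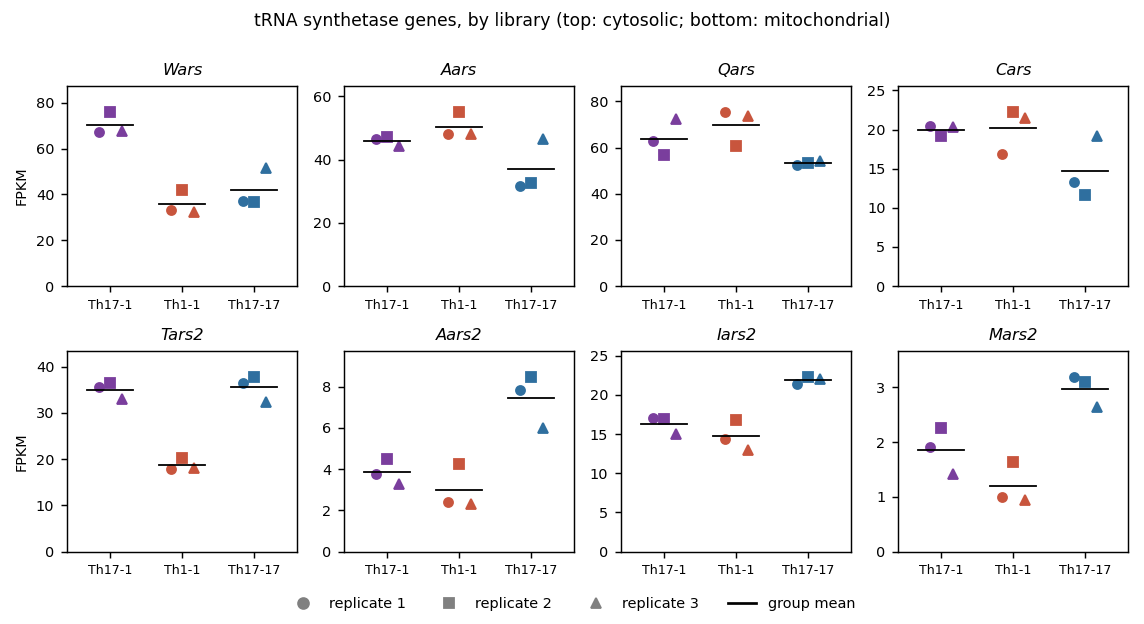
FPKM of 4 cytosolic (top) and 4 mitochondrial (bottom) synthetases in each library, with Th17-1, Th1-1 and Th17-17 from left to right, symbols for replicates 1, 2 and 3, a line for the group mean and each axis starting at 0. Wars is highest in Th17-1 (67.4 to 76.0 FPKM), Tars2 is at about the same level in Th17-1 and Th17-17 and lower in Th1-1, and Aars2, Iars2 and Mars2 are highest in Th17-17.

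The mitochondrial synthetases held most of the member calls between Th1-1 and Th17-17. In Th1-1 against Th17-17, 8 of 15 (53.3%, beside 28.9% of all genes) were lower and 0 higher, 14 of 15 differences were below 0, and the median was -0.60 beside -0.17 over all genes. The count was 7 or 8 under each of the other scalings, pseudocounts and filters, and 7 to 12 when a single library was left out, the 12 being the fit without Th1-1 replicate 2; without replicate 3 of every group it was 6. Under median-ratio scaling the median was -0.44 beside -0.01 over all genes. The Th1-1 and Th17-17 libraries did not overlap in 8 of the 15 genes (53.3%), near the 52.9% of all genes. Levels of the mitochondrial enzymes were lower than those of the cytosolic enzymes. Over 14 amino acids with both enzymes, the summed FPKM of the mitochondrial ones was 24.6%, 24.7% and 23.6% of that of the cytosolic ones in Th17-1, 22.3%, 21.3% and 22.6% in Th1-1 and 34.5%, 34.9% and 25.2% in Th17-17 libraries. Replicates 1 and 2 of Th17-17 stood above the other 7 libraries, and replicate 3 lay just above the Th17-1 range.

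Aars2, the mitochondrial alanyl enzyme at chr17:45506841-45520843 on the plus strand, had the most negative difference. It had 3.78, 4.47 and 3.29 FPKM in Th17-1, 2.39, 4.22 and 2.31 FPKM in Th1-1 and 7.85, 8.45 and 6.01 FPKM in Th17-17 libraries. Every Th17-17 library lay above all 6 others. In limma it differed by -1.11 ± 0.20 in Th1-1 against Th17-17 (adjusted p = 0.00261, held in all 19 alternatives) and by -0.80 ± 0.20 in Th17-1 against Th17-17 (adjusted p = 0.0271). Th17-1 against Th17-17 missed the threshold without Th17-1 replicate 1 or 3 or Th17-17 replicate 1 or 2 (adjusted p = 0.0819 to 0.113), without replicate 3 of every group (adjusted p = 0.0676), with no filter (adjusted p = 0.0536) and with quantile scaling (adjusted p = 0.051).

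Tars2, the mitochondrial threonyl enzyme at chr3:95739976-95760206 on the minus strand, had a different arrangement. It had 35.6, 36.4 and 33.1 FPKM in Th17-1, 17.8, 20.3 and 18.2 FPKM in Th1-1 and 36.4, 37.7 and 32.3 FPKM in Th17-17 libraries. The Th17-1 and Th17-17 libraries overlapped and all 6 lay above the Th1-1 libraries. In limma Th17-1 stood 0.87 ± 0.09 above Th1-1, a 1.82-fold difference (adjusted p = 0.00127, 0.75 to 0.92 over the alternatives). Th1-1 against Th17-17 gave -0.88 ± 0.09 (adjusted p = 0.000234), and both calls held in all 19 alternatives. Th17-1 differed from Th17-17 by -0.02, with a 95% interval of -0.23 to 0.19 and adjusted p = 0.914.

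Mars2 and Vars2, the methionyl and valyl enzymes, were also called lower in Th1-1 than in Th17-17 in every alternative that tested them. Mars2 had 1.91, 2.25 and 1.41 FPKM in Th17-1, 0.992, 1.64 and 0.934 FPKM in Th1-1 and 3.19, 3.11 and 2.64 FPKM in Th17-17 libraries. Vars2 had 7.27, 7.39 and 5.43 FPKM in Th17-1, 4.78, 5.99 and 4.63 FPKM in Th1-1 and 8.29, 9.91 and 8.01 FPKM in Th17-17 libraries. In both genes the Th17-17 libraries lay above all others, and Th17-1 and Th1-1 overlapped. The limma differences of Th1-1 against Th17-17 were -0.87 ± 0.16 for Mars2 (adjusted p = 0.00329) and -0.67 ± 0.14 for Vars2 (adjusted p = 0.00602).

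Cars2, Hars2 and Iars2, the cysteinyl, histidyl and isoleucyl enzymes, were called lower than in Th17-17 both in Th17-1 and in Th1-1. Iars2 had 17.02, 16.94 and 15.04 FPKM in Th17-1, 14.3, 16.9 and 12.9 FPKM in Th1-1 and 21.4, 22.3 and 22.1 FPKM in Th17-17 libraries. Cars2 averaged 13.3 ± 0.9, 11.7 ± 1.9 and 18.1 ± 1.0 FPKM and Hars2 8.57 ± 1.11, 7.19 ± 0.32 and 11.5 ± 0.7 FPKM in the same groups (SD, n = 3 each). For each of these genes the lowest Th17-17 library was above the highest library of either other group. In Th17-1 against Th17-17 the limma differences were -0.41 for Cars2, -0.39 for Hars2 and -0.40 for Iars2 (adjusted p = 0.0437, 0.0393 and 0.0339). Of 19 alternatives, 7 ended this call for Aars2, 9 for Iars2, 12 for Hars2 and 13 for Cars2. The count of members called lower, 4, stayed at 4 with either pseudocount, equal sums or the filter of 5 FPKM and was 6 without Th1-1 replicate 2. It became 2 without Th1-1 replicate 1 or 3, 1 with median-ratio scaling, 0 with quantile scaling, 1 with no filter, 0 without Th17-1 replicate 3, 0 without Th17-17 replicate 1 or 2 and 1 without Th17-17 replicate 3, Th17-1 replicate 1 or Th17-1 replicate 2. In Th1-1 against Th17-17 the differences were -0.60, -0.61 and -0.55 (adjusted p = 0.00392, 0.00247 and 0.00381), and these calls held in every alternative except Cars2 without replicate 3 of every group (adjusted p = 0.0502). The last of the 8 lower calls there, that of Sars2, the seryl enzyme, was less stable (-0.51, limma adjusted p = 0.0183). It ended in 6 of 19 alternatives, among them median-ratio and quantile scaling (limma adjusted p = 0.0604 and 0.0816). Without replicate 3 of every group its limma adjusted p was 0.107. Iars2 shares 2034 exon bases with Rab3gap2, Cars2 422 with Naxd and Hars2 195 with Hars, each on the opposite strand, and whether strand was used in counting is not given in the sources used here.

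The mitochondrial enzyme had the lower difference in 11 of 14 pairs with its cytosolic counterpart in Th1-1 against Th17-17, with a median gap of -0.48. In Th17-1 against Th17-17 it was lower in 12 of 14 pairs (median gap -0.31), and in Th17-1 against Th1-1 in 4 of 14 (median gap 0.08). These comparisons share libraries and are not independent. The widest gap was that of the alanyl pair, with -1.11 for Aars2 beside 0.46 for Aars in Th1-1 against Th17-17. The pairs that went the other way included Lars2 and Wars2, with gaps of 0.36 and 0.03.

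**Figure D5:**
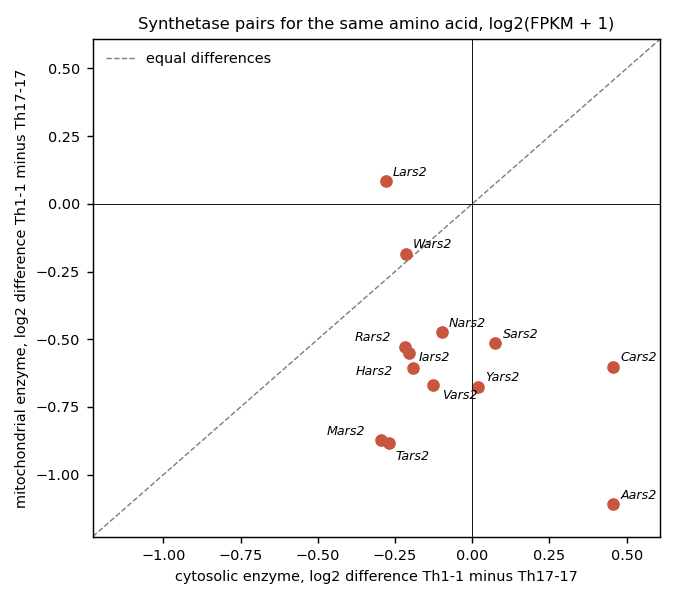
Log2 difference of Th1-1 minus Th17-17 for 13 of the 14 pairs of synthetases that charge the same amino acid, with the cytosolic enzyme on the horizontal axis and the mitochondrial enzyme, which gives the point its name, on the vertical axis. Of the 13 points 11 lie below the dashed line of equal differences, with Aars2 and Cars2 farthest from it.

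The mean of Th17-1 lay between those of Th1-1 and Th17-17 for 39 of the 52 members (75.0%), beside 60.2% of all genes tested. By role this held for 14 of 15 mitochondrial synthetases, 11 of 19 cytosolic synthetases, 4 of 5 folate enzymes and 3 of 3 tested stress effectors. The exception among the mitochondrial enzymes was Lars2. The placement is a description of group means and was not tested. Th17-1 libraries did not overlap those of Th17-17 in 18 of the 52 members (34.6%, beside 43.2% of all genes). They did not overlap those of Th1-1 in 7 (13.5%, beside 29.2%).

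The genes with a C/EBP-ATF match in their windows, shown above, did not move as a block. Of the 7 tested, 0 were called in either Th17-1 comparison, and in Th1-1 against Th17-17 Aars was higher, Trib3 was lower and 5 were not called, with differences from -0.67 to 0.59 and a median of 0.02. The 35 members whose windows held no match had a median of -0.38, beside -0.17 over all genes. Of these 35, 4 were called higher and 8 lower, beside 14% and 28.9% of all genes. Among the 8, 7 were mitochondrial synthetases. The members with and without a match were not tested against each other. Gars, a match holder that serves both compartments, averaged 79.5 ± 3.5 FPKM in Th17-1, 91.7 ± 24.2 FPKM in Th1-1 and 74.3 ± 10.6 FPKM in Th17-17 (SD, n = 3 each).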

How the data were processed

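The members and gene lists were chosen with earlier results of these data known. Sample titles gave each library's group and replicate number. Culture conditions are those of the labels' protocols, whose ug/mL for the first antibody doses is mg/mL in the series text. The authors deposited FPKM values, fragments scaled by transcript length and by mapped fragments, for 9 libraries and 22017 gene symbols. Per the submitters' processing notes, mm10 (the GRCm38 assembly), HISAT2 and DESeq2 were used. The sources used here do not give versions, annotation, strand setting or the treatment of reads with several matches. Whole reads could not be recovered from the low values, where the commonest ratio between libraries covered at most 0.961% of genes within 0.01 log2 units. Depth is therefore unknown and no counting interval can be given. FPKM also depends on library composition, so scaling was varied.

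The fit kept the 10538 genes, 52 of the 55 members among them, that reached 1 FPKM in 3 or more libraries. limma (version 3.58.1, R 4.3.3, with a mean-variance trend) was fitted to log2(FPKM + 1) in all 9 libraries, with group means as terms and 6 residual degrees of freedom before moderation. Two-sided p-values were adjusted by Benjamini-Hochberg over all genes, threshold 0.05, and the fit was tested on simulated data. Alternatives, 19 per comparison, were a replicate block, pseudocounts of 0.1 and 5, no filter or 5 FPKM in 3 libraries, equal sums, median-ratio and quantile scaling, the 2 compared groups only, the omission of each library, and the omission of replicate 3 of every group. Same-numbered libraries were not treated as paired, since neither the labels nor the correlation of their deviations (-0.178 to 0.659) pairs them, although replicate 3 of every group shares high Cd8a and Cd8b1. The alternatives for named genes outside the members were added after seeing the data.

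Named genes were the 22 listed one by one, the synthetases with the 4 largest called differences per direction and comparison without overlap, and up to 4 called genes per direction of each other list. Kars, Tarsl2, Lars2, Wars2, Gars, Sars2, Myc, Eif2ak4 and Irgm1 were named after their values were seen. Gene positions and exon overlaps are from the GENCODE annotation of GRCm38, promoter windows from RefSeq (GRCm38.p6). Tables used pandas 2.3.3 under Python 3.11.15, and figures matplotlib 3.10.9. Some results are not reported here.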

Additional observations from a re-analysis of the deposited data

How the results depend on the processing

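Of the 24 limma calls among the members, 11 held in every fit without a single library (0 of 6 in Th17-1 against Th17-17, 2 of 3 in Th17-1 against Th1-1 and 9 of 15 in Th1-1 against Th17-17), and 10 held in every alternative. No direction of a call reversed in the alternatives run. Members called lower in Th17-1 against Th17-17 numbered 4 as reported, 1 with no filter, 1 with median-ratio scaling and 0 with quantile scaling; the cause was not tested. With the 2 compared groups only, which leaves fewer libraries to estimate the spread, Th17-1 against Th1-1 had 692 genes called (1104 as reported) and 0 members lower (1 as reported).

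Leaving out single libraries, or replicate 3 of every group, gave 681 to 2342 genes called in Th17-1 against Th17-17, 315 to 1861 in Th17-1 against Th1-1 and 3013 to 5400 in Th1-1 against Th17-17. Members called higher ranged from 0 to 4, 2 to 5 and 1 to 7 in the same order, and members called lower from 0 to 6, 0 to 3 and 7 to 26 (8 to 26 in fits without a single library). The highest of the last, 26, came without Th1-1 replicate 2. Without replicate 3 of every group, 1036 genes were called in Th17-1 against Th17-17, 0 of them members called lower, and 596 in Th17-1 against Th1-1.

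The replicate numbers are not shown to pair the libraries: in 9 of 18 pairings of a library with another group, the library correlated best with its own number. With the replicate block, members called higher and lower were 2 and 4, 2 and 1, and 5 and 10, as without it, with 1681, 1255 and 4452 genes called in all; in Th17-1 against Th17-17 Cars2 missed the threshold (adjusted p = 0.056, limma) and Mars2 passed it. Depth is unknown, so no limit of detection is given, and with 3 libraries per group a difference that was not called may still exist.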

Other observations

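Of 30 other targets of ATF4 outside the members, 19 were tested. In Th1-1 against Th17-17, limma called 8 higher (42.1%, beside 14% of all genes) and 2 lower (10.5%, beside 28.9%), with a median of 0.29 beside -0.17 over all genes. The 4 largest differences were those of Jdp2, an AP-1 repressor, with 1.48, 1.64 and 4.25 FPKM in Th17-1, 11.6, 6.40 and 13.1 FPKM in Th1-1 and 0.48, 0.448 and 1.86 FPKM in Th17-17 libraries, followed by Gpt2, a mitochondrial alanine aminotransferase, Soat2, a sterol acyltransferase, and Atf3, a stress-induced factor. The Atf3 call (0.96, adjusted p = 0.0418, limma) ended in 10 of 18 alternatives, among them those without Th1-1 replicate 1 or 2, Th17-1 replicate 1 or 2 or Th17-17 replicate 1 or 2, and the replicate block. Gpt2 had 3.31, 2.37 and 3.19 FPKM in Th17-1, 3.95, 5.72 and 5.05 FPKM in Th1-1 and 0.415, 0.518 and 0.974 FPKM in Th17-17 libraries, and its 3 groups did not overlap. It was called in Th17-1 against Th17-17 as well (1.28 ± 0.18, adjusted p = 0.00195, limma). Slc7a6, an amino acid transporter, and Gadd45a, a stress gene, were lower in Th1-1 than in Th17-17 (-0.81 and -0.85). Against Th17-17, Th17-1 had 2 higher (10.5%, beside 6.43% of all genes) and 0 lower (median 0.13). Against Th1-1 it had 1 higher and 4 lower (21.1%, beside 4.81%), with a median of -0.09. The lower calls of Jdp2 and Soat2 there ended without Th1-1 replicate 1 or 3 or Th17-1 replicate 1 or 2. The higher call, that of Gadd45a, ended in 6 of 18 alternatives.

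Of 19 genes for eIF2 kinases and eIF2 control, 2 were called higher in Th1-1 against Th17-17 (10.5%, beside 14% of all genes) and 0 lower. Eif2ak3, which encodes the kinase PERK, had 14.6, 16.6 and 26.4 FPKM in Th17-1, 38.1, 32.1 and 45.3 FPKM in Th1-1 and 14.6, 14.1 and 17.7 FPKM in Th17-17 libraries. Its Th1-1 libraries lay above all others (1.26 ± 0.21 against Th17-17, adjusted p = 0.00198; Th17-1 against Th1-1 -0.998, adjusted p = 0.0199, both limma). The Th17-1 call ended without Th1-1 replicate 1 or 3 or Th17-1 replicate 1 or 2, and with the 2 compared groups only. The other of the 2 genes was Ppp1r15a, the stress-induced subunit of an eIF2 phosphatase. It was also the 1 gene called higher in Th17-1 than in Th17-17 (5.26% of the list, beside 6.43% of all genes). That call (0.49, adjusted p = 0.027, limma) ended without Th17-1 replicate 2 or 3, Th17-17 replicate 1 or 2, or replicate 3 of every group (adjusted p = 0.132). Ppp1r15a is also in the list of other ATF4 targets above, so its calls are counted in both lists. Eif2ak4, which encodes the amino acid sensor GCN2, averaged 3.08 ± 0.18 FPKM in Th17-1, 3.99 ± 0.07 FPKM in Th1-1 and 4.20 ± 0.72 FPKM in Th17-17 (SD, n = 3 each) and was not called.

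Synthetase genes outside the naming pattern, with the scaffold and amidotransferase genes, had 4 of 13 lower (30.8%, near the 28.9% of all genes) and 0 higher in Th1-1 than in Th17-17, namely Gatc, Sepsecs, Aarsd1 and Qrsl1, of which Gatc and Qrsl1 encode subunits of the mitochondrial glutamyl-tRNA amidotransferase. Without replicate 3 of every group the Aarsd1 and Qrsl1 calls ended (adjusted p = 0.176 and 0.0798, limma), and that of Aarsd1 also without any single Th17-17 replicate or Th1-1 replicate 1 or 3. The Aarsd1 call ended with no filter and with median-ratio or quantile scaling as well. Sepsecs was also lower in Th17-1 than in Th17-17 (-0.54, adjusted p = 0.0135, limma), the 1 call of the list there, which ended without Th17-17 replicate 2 or replicate 3 of every group (adjusted p = 0.0926). Folate and glycine genes outside the members had 2 higher and 4 lower of 14 in Th1-1 than in Th17-17 (beside 14% and 28.9% of all genes, which hold for the next lists too), 1 and 1 in Th17-1 against Th17-17 and 0 and 1 against Th1-1. Proline, glutamate and aspartate genes had 2 higher and 1 lower of 10 in Th1-1 than in Th17-17, and amino acid sensing genes of mTORC1 1 and 3 of 18. In Th17-1 the proline group had 1 higher against Th17-17 and the mTORC1 group had 0 called in either Th17-1 comparison. For the Th17-1 counts of this paragraph, the shares of all genes were 6.43% higher and 9.49% lower against Th17-17. Against Th1-1 they were 5.67% and 4.81%. Endoplasmic reticulum stress genes of the ATF6 and XBP1 arms had 3 higher of 15 in Th1-1 than in Th17-17 and 0 lower. Atf6 itself had 13.4, 12.8 and 14.4 FPKM in Th17-1, 8.11, 7.97 and 9.33 FPKM in Th1-1 and 6.82, 7.09 and 9.03 FPKM in Th17-17 libraries, above both in every Th17-1 library (0.76 against Th17-17, adjusted p = 0.00338, and 0.62 against Th1-1, adjusted p = 0.0133, both limma), the call against Th1-1 ending without Th17-1 replicate 1 or 2.

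Cell cycle genes had 1 higher (5.56%) and 2 lower (11.1%) of 18 in Th1-1 than in Th17-17, and MYC with its partners 2 and 2 of 10, beside 14% higher and 28.9% lower over all genes. Myc, which drives growth genes, had 81.6, 77.6 and 53.3 FPKM in Th17-1, 60.1, 87.1 and 54.4 FPKM in Th1-1 and 44.1, 44.3 and 59.1 FPKM in Th17-17 libraries. Its low library in Th17-1 and high libraries in Th1-1 and Th17-17 are the ones that depart in Phgdh, Psat1, Shmt2 and Mthfd1. The part of Myc in that arrangement was not tested. The 10 genes of its list did not share it. Th17-1 replicate 3 was highest in 5 and lowest in 4 of them, and Th1-1 replicate 2 highest in 3 and lowest in 5. Myc was not called with all libraries. Without replicate 3 of every group it passed against Th17-17 in Th17-1 (adjusted p = 0.0391) and in Th1-1 (adjusted p = 0.032, both limma).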
